A study of Mus musculus with 15 samples.

Results

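Hepatocyte identity is held by a small network of transcription factors, and 9 genes of that network were examined in the livers of wildtype mice and of mice that lack Clever-1: Hnf4a, Foxa1, Foxa2, Foxa3, Cebpa, Cebpb, Onecut1, Prox1 and Nr5a2. The genes were chosen by symbol from the 19464 rows of the deposited table, each symbol had 1 row, and all 9 passed the filter on low counts in every comparison. Stab1 encodes Clever-1, also called stabilin-1, a scavenger receptor of sinusoidal endothelial cells and macrophages.

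RNA from whole dissected livers was sequenced in 15 libraries of 4 groups, all on the mixed strain background C57BL/6N;129SvJ. Wildtype mice (n = 4) and Stab1-/- mice (n = 4) were 2 weeks old, and wildtype (n = 4) and Stab1-/- (n = 3) fetuses were at the embryonic stage E17.5. The deletion affects every cell that would make Clever-1, the labels do not say whether the wildtype mice were littermates, and no library of sorted hepatocytes was analysed here. Each library held from 9659 to 10964 units of 1000 uniquely mapped reads on genes. Expression levels are given as RPKM (reads scaled for the length of the gene model and for library size), and differences as log2 fold changes ± standard error from edgeR's quasi-likelihood test on the read counts with TMM scaling, called at a Benjamini-Hochberg adjusted p under 0.05. The level of Stab1 in the Stab1-/- libraries was 11.7% of wildtype at 2 weeks and 25.4% at E17.5, with no overlap between the genotypes at either age. All 15 hepatocyte markers had reads in every library, among them albumin and transthyretin, so the labelled tissue was matched by its defining genes.

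Each of the 9 proteins binds DNA and has a known role in the liver. HNF4A is a nuclear receptor that controls genes of lipid transport, coagulation and metabolism in the mature hepatocyte. FOXA1, FOXA2 and FOXA3 are forkhead factors that open chromatin early in liver development, and CEBPA and CEBPB are leucine zipper factors, the former tied to metabolic maturation and the latter to acute-phase and regenerative responses. ONECUT1, also called HNF6, acts in the fetal decision between hepatocytes and bile duct cells, PROX1 is a homeobox protein needed for the migration of hepatoblasts, and NR5A2, also called LRH-1, is a nuclear receptor that controls bile acid and cholesterol genes. These factors bind one another's promoters in many cases, which makes the network partly self-sustaining.

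RefSeq windows around the transcription starts (GRCm38.p6, 300 bases each, of which 250 lie before the start) were available for all 9 genes, 14 windows in all, on chromosomes 1 (Nr5a2, Prox1), 2 (Hnf4a, Foxa2, Cebpb), 7 (Cebpa, Foxa3), 9 (Onecut1) and 12 (Foxa1). Letters that factors of the network can bind were searched on both strands, and 7 of the 14 windows held a match. Of these, 4 are shown without the bases after the start: the Hnf4a and Foxa2 windows with the ONECUT letters, because Onecut1 moved against both genes with age, and the Nr5a2 windows, because Nr5a2 was the only member called between the genotypes. In wildtype Onecut1 moved against all 8 other members, so this is not particular to Hnf4a and Foxa2. Capitals mark the match: ATTGATT (ONECUT; on the reverse strand in Hnf4a, which reads AATCAAT here), GTTAAT (a half-site of HNF1) and TTNNGCAA (C/EBP).
Hnf4a, upstream start, chr2:163506607-163506856, plus strand: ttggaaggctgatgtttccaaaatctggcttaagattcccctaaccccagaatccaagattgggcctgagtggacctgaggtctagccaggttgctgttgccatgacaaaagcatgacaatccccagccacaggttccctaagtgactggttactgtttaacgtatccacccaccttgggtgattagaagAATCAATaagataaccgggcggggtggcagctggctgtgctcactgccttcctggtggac
Foxa2, upstream start, chr2:148046970-148047219, minus strand: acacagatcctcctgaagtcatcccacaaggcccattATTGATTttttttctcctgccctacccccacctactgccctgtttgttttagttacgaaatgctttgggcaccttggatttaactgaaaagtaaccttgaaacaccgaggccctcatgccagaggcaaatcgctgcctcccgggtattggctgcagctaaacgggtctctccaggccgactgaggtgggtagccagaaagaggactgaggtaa
Nr5a2, upstream start, chr1:136960449-136960698, minus strand: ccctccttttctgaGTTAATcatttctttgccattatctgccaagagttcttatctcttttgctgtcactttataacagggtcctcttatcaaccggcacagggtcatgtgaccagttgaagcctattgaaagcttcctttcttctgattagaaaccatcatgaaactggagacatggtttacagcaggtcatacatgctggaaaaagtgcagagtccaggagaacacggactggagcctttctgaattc
Nr5a2, downstream start, chr1:136953631-136953880, minus strand: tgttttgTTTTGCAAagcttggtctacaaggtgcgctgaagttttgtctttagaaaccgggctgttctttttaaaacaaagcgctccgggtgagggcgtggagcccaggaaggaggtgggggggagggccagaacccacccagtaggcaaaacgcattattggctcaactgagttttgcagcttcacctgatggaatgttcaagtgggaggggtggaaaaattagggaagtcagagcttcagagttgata

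The ONECUT match began 60 bases before the upstream start of Hnf4a and 213 bases before the upstream start of Foxa2. It was found in 2 of the 14 windows of the network and in 2.86% of all 32851 mouse windows. The HNF1 half-site GTTAAT was in 3 windows of the network (7.10% of all windows), namely 1 of Nr5a2, 1 of Foxa2 and the downstream start of Hnf4a, which held it in 2 places that began 81 and 74 bases before the start. TTNNGCAA was in 1 window of the network (10.8% of all windows) and began 243 bases before the downstream start of Nr5a2, and the forkhead letters TGTTTAC were in the single window of Foxa1 (3.65% of all windows), beginning 141 bases before the start. No window of the network held TTGCGCAA (0.183% of all windows; every such match is also one of TTNNGCAA), TCAAGGTCA of NR5A2 (0.423%), CAAAGTCCA of HNF4 (0.475%) or ATCGATT, the other ONECUT form (0.451%). These are matches of letters in short windows and not measured binding. The downstream window of Hnf4a held no ONECUT match, and the read counts are per gene and do not separate the starts.

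In wildtype fetal liver the most abundant of the 9 transcripts per length was Cebpa, with a mean of 106 ± 17.0 RPKM (SD, n = 4), followed by Hnf4a at 62.1 ± 4.32 RPKM. Foxa3 (22.1 ± 2.87 RPKM) and Cebpb (16.9 ± 1.19 RPKM) came next, and the libraries of these 4 genes did not overlap between neighbours. Onecut1 (10.6 ± 3.58 RPKM), Prox1 (9.92 ± 1.64), Foxa2 (7.02 ± 1.85) and Nr5a2 (6.13 ± 0.503) followed with overlapping ranges, and Foxa1 was lowest at 3.68 ± 0.507 RPKM.

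By 2 weeks the order in wildtype liver was different. Hnf4a (124 ± 25.1 RPKM) and Cebpa (114 ± 23.8 RPKM) had overlapping ranges, as did Cebpb (42.4 ± 2.68 RPKM) and Foxa3 (37.3 ± 6.66 RPKM), while Foxa2 (20.6 ± 2.89 RPKM) stood beside Prox1 (14.2 ± 2.46 RPKM) and above Nr5a2 (8.90 ± 1.10 RPKM). Onecut1 was now at the bottom with 3.62 ± 2.85 RPKM, overlapping Foxa1 at 4.23 ± 1.06 RPKM. In Stab1-/- livers of 2 weeks Cebpa (155 ± 23.6 RPKM) and Hnf4a (129 ± 15.3 RPKM) led with overlapping ranges, and Onecut1 was lowest at 2.01 ± 0.808 RPKM, below Foxa1 without overlap.

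**Figure D1:**
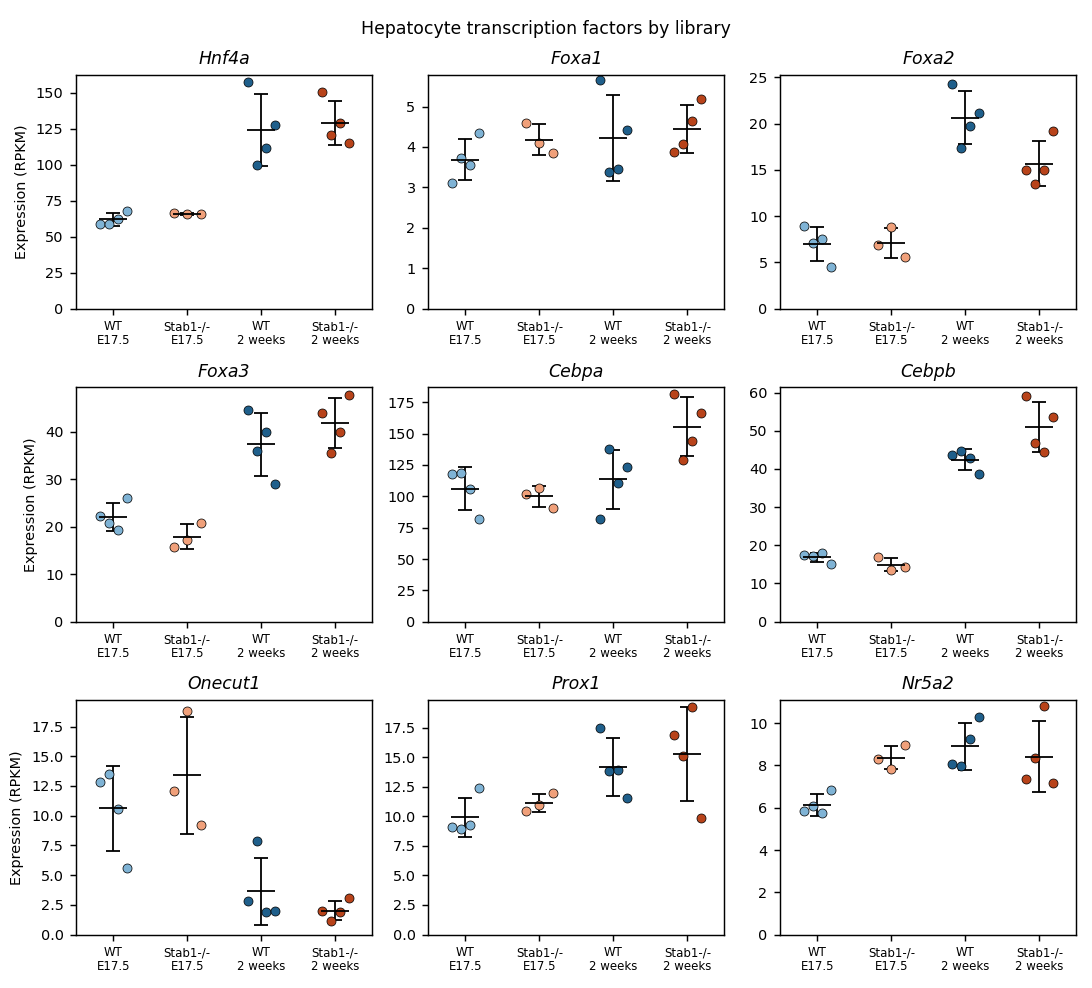
Expression in RPKM (y axis, linear, from 0) of each of the 9 genes in every library of the 4 groups (x axis; WT is wildtype); points are libraries, and the black bars give the mean ± SD (n = 4, and n = 3 for Stab1-/- at E17.5). Foxa2 and Cebpb lie higher at 2 weeks than at E17.5 in every library, Onecut1 is highest at E17.5 with up to 18.8 RPKM, and 1 wildtype library at 2 weeks stands apart for Onecut1 at 7.85 RPKM.

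The design first allows the 2 ages to be compared within each genotype. Between E17.5 and 2 weeks, 8 of the 9 genes were called higher and Onecut1 was called lower in wildtype liver, against a background of 71.9% of 13369 tested genes called in this comparison (34.9% higher and 37% lower). In Stab1-/- liver 6 were called higher and Onecut1 lower, against 72.5% of 13433 genes (35.7% higher and 36.8% lower), and Foxa1 and Nr5a2 were not called. With so large a share of all genes called, a call by itself says little about these 9. The same holds for ages without overlap. In wildtype 5 of the 9 genes had ranges apart and 4 overlapped, where 69.1% of all tested genes had ranges apart. In Stab1-/- liver 5 lay above, 1 lay below and 3 overlapped, where 72.0% of all tested genes had ranges apart. The median log2 fold change of the 9 was 0.90 in wildtype and 0.86 in Stab1-/- liver, beside -0.01 over all tested genes in either genotype.

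The fetal liver is also a site of blood formation, and the markers of blood cells moved with age. The summed level of 11 erythroid markers lay between 3101 and 4982 RPKM in the 7 libraries of E17.5 and between 33.0 and 58.1 RPKM in the 8 libraries of 2 weeks, and all 11 were called lower at 2 weeks in both genotypes. The summed level of 8 granulocyte markers went from 3069 to 7430 RPKM at E17.5 to 26.5 to 392 RPKM at 2 weeks, and that of 15 hepatocyte markers from 86188 to 111207 RPKM at E17.5 to 105622 to 155263 RPKM at 2 weeks. In such bulk samples a lower share of one cell type and less RNA per cell of that type cannot be told apart. The comparison was therefore repeated with the libraries scaled by their totals and with the libraries scaled to the hepatocyte markers, which shifted the median of all genes in wildtype from -0.01 to -0.38 and -0.98 and in Stab1-/- liver from -0.01 to -0.24 and -0.65 on the log2 scale. Scaled to their own mean, 6 of the 15 markers were called higher and 6 lower in wildtype, and 7 and 8 in Stab1-/- liver. The markers thus move with age themselves, and values relative to them are not corrected for cell content.

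Hnf4a, Foxa2 and Cebpb were called higher at 2 weeks, and Onecut1 lower, in both genotypes under each of these 3 scalings. Relative to the hepatocyte markers, the genes called higher numbered 3 in wildtype (Hnf4a, Foxa2 and Cebpb; background 11.2% of genes) and 4 in Stab1-/- liver (the same 3 and Foxa3; background 15.8%). Those called lower were Cebpa and Onecut1 in wildtype (background 71.9%) and Onecut1 in Stab1-/- liver (background 56.1%).

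Hnf4a had 59.1, 58.8, 62.3 and 68.1 RPKM in the 4 wildtype libraries at E17.5 and 157, 99.7, 111 and 127 RPKM at 2 weeks. The Stab1-/- libraries had 66.7, 65.5 and 65.6 RPKM at E17.5 and 150.1, 121, 129 and 115 RPKM at 2 weeks. In both genotypes every library of 2 weeks was above every library of E17.5. The log2 fold change was 1.36 ± 0.14 in wildtype (adjusted p = 1.81e-06) and 1.18 ± 0.11 in Stab1-/- liver (adjusted p = 1.91e-06), and it was 0.39 (adjusted p = 0.0336) and 0.56 (adjusted p = 0.00566) relative to the hepatocyte markers.

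Foxa2 had the largest fold change of the forkhead genes in wildtype, and Foxa3 in Stab1-/- liver. Foxa2 had 8.95, 7.06, 7.55 and 4.53 RPKM in wildtype fetuses and 24.3, 17.4, 19.7 and 21.1 RPKM in 2-week-old wildtype mice, with no overlap. Its levels in Stab1-/- libraries were 6.92, 8.85 and 5.54 RPKM at E17.5 and 15, 13.5, 15 and 19.2 RPKM at 2 weeks, again with no overlap. The rise was 1.91 ± 0.19 on the log2 scale in wildtype (adjusted p = 1.44e-06) and 1.36 ± 0.19 in Stab1-/- liver (adjusted p = 6.8e-05).

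Foxa3, the most abundant forkhead factor per length in all 4 groups, was also higher at 2 weeks without overlap in either genotype. Wildtype libraries had 22.3, 20.7, 19.3 and 25.9 RPKM at E17.5 and 44.6, 35.9, 40.0 and 28.9 RPKM at 2 weeks, a log2 fold change of 1.12 ± 0.13 (adjusted p = 8.72e-06). Stab1-/- libraries had 15.7, 17.2 and 20.8 RPKM at E17.5 and 44.0, 35.6, 39.9 and 47.7 RPKM at 2 weeks, a log2 fold change of 1.45 ± 0.15 (adjusted p = 5.29e-06). Relative to the hepatocyte markers the difference was 0.80 (adjusted p = 0.00109) in Stab1-/- liver and 0.15 (adjusted p = 0.425) in wildtype, so that the call in wildtype was lost.

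Foxa1 remained between 3.12 and 5.66 RPKM in all 15 libraries, and its ranges at the 2 ages overlapped in both genotypes. Its log2 fold change was 0.56 ± 0.17 in wildtype (adjusted p = 0.00886) and 0.31 ± 0.15 in Stab1-/- liver (adjusted p = 0.0794; 95% interval -0.02 to 0.64). The wildtype call was lost with library totals (0.20, adjusted p = 0.32) and with limma on log2(RPKM + 0.1) (0.17, adjusted p = 0.389). The sign turned negative relative to the hepatocyte markers, at -0.40 in wildtype (adjusted p = 0.0764) and -0.33 in Stab1-/- liver (adjusted p = 0.105).

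The 2 C/EBP genes differed in how far they moved. Cebpb had 17.4, 17.1, 17.9 and 15.2 RPKM in wildtype fetuses and 43.7, 44.6, 42.8 and 38.6 RPKM in 2-week-old wildtype mice. In Stab1-/- libraries it had 16.8, 13.6 and 14.4 RPKM at E17.5 and 59.1, 46.7, 44.5 and 53.7 RPKM at 2 weeks. The ages did not overlap in either genotype, and the log2 fold change was 1.69 ± 0.09 in wildtype (adjusted p = 1.1e-08) and 1.99 ± 0.13 in Stab1-/- liver (adjusted p = 1.09e-07), with the smallest p-values of the 9 genes.

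Cebpa had 118, 119, 106 and 82.1 RPKM in wildtype fetuses and 81.9, 138, 111 and 123 RPKM in 2-week-old wildtype mice, and these ranges overlapped almost completely. The call in wildtype (log2 fold change 0.46 ± 0.17, adjusted p = 0.0287) rested on the scaling: the difference was 0.10 (adjusted p = 0.606) with library totals, and relative to the hepatocyte markers Cebpa was called lower, at -0.50 (adjusted p = 0.00934). It was also lost without wildtype replicate 2 or 4 of 2 weeks and without wildtype replicate 3 or 4 of E17.5, with values of 0.35 to 0.46. In Stab1-/- libraries Cebpa had 102, 107 and 91.0 RPKM at E17.5 and 182, 129, 144 and 167 RPKM at 2 weeks, without overlap. There the log2 fold change was 0.86 ± 0.14 (adjusted p = 0.000184), and 0.24 (adjusted p = 0.195) relative to the hepatocyte markers.

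Onecut1 was the member that fell. Wildtype libraries had 12.8, 13.5, 10.6 and 5.59 RPKM at E17.5 and 2.83, 7.85, 1.86 and 1.95 RPKM at 2 weeks, and the ages overlapped through wildtype replicate 2 of 2 weeks and wildtype replicate 4 of E17.5. Stab1-/- libraries had 12.1, 18.8 and 9.26 RPKM at E17.5 and 1.95, 1.14, 1.87 and 3.10 RPKM at 2 weeks, with every 2-week library below every fetal one. These levels rested on 109 to 359 reads per library at E17.5 and on 22 to 142 reads at 2 weeks, where only Onecut1 had libraries with fewer than 107 reads.

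The log2 fold change of Onecut1 was -1.21 ± 0.40 in wildtype (adjusted p = 0.017) and -2.52 ± 0.32 in Stab1-/- liver (adjusted p = 3.29e-05). Without wildtype replicate 2 of 2 weeks the wildtype value was -1.88 (adjusted p = 0.000228), and the call was lost without replicate 1 (-1.08, adjusted p = 0.0525) or replicate 3 (-0.99, adjusted p = 0.0574) of that group. Relative to the hepatocyte markers the fall was -2.12 in wildtype and -3.12 in Stab1-/- liver. The summed biliary markers, which include genes of the cell type where ONECUT1 also acts, lay between 25.2 and 107 RPKM at E17.5 and between 52.0 and 76.4 RPKM at 2 weeks. At 2 weeks the sum was mostly Spp1 (52.3 ± 3.94 RPKM in wildtype, 55.5 ± 4.86 in Stab1-/- liver). Of 5 tested with age, Spp1 and Sox9 were called higher in both genotypes. Krt7 was called lower in wildtype (-0.66 ± 0.23), and Krt7 (-2.19 ± 0.61) and Epcam (-3.22 ± 0.97) in Stab1-/- liver. Of all tested genes 34.9% were called higher and 37% lower in wildtype, and 35.7% and 36.8% in Stab1-/- liver. The part of the biliary cells in the level of Onecut1 was not tested. The summed 107 RPKM at E17.5 came from Stab1-/- replicate 1, which also carried intestinal genes, and the next highest fetal library had 57.1 RPKM.

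Prox1 had 9.07, 8.95, 9.28 and 12.4 RPKM in wildtype fetuses and, in 2-week-old wildtype mice, 13.8, 14.0 and 11.5 RPKM in replicates 2 to 4 and more than these in replicate 1 (760 reads). Stab1-/- libraries had 10.5, 10.9 and 12.0 RPKM at E17.5 and 16.9, 15.1, 19.3 and 9.83 RPKM at 2 weeks, so the ages overlapped by 1 library or more in both genotypes. It was called higher at 2 weeks in wildtype (0.88 ± 0.13, adjusted p = 7.48e-05) and in Stab1-/- liver (0.67 ± 0.17, adjusted p = 0.00493). The Stab1-/- call was lost with library totals (0.45, adjusted p = 0.0513) and with limma on log2(RPKM + 0.1) (0.41, adjusted p = 0.0835). Relative to the hepatocyte markers the values were -0.09 (adjusted p = 0.66) in wildtype and 0.05 (adjusted p = 0.854) in Stab1-/- liver.

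Nr5a2 rose with age in wildtype, from 5.87, 6.07, 5.74 and 6.86 RPKM to 8.06, 8.0, 9.24 and 10.3 RPKM, without overlap. In Stab1-/- liver it had 8.33, 7.84 and 8.95 RPKM at E17.5 and 7.36, 8.34, 10.8 and 7.15 RPKM at 2 weeks, and the ages overlapped. The log2 fold change was 0.91 ± 0.12 in wildtype (adjusted p = 2.56e-05) and 0.23 ± 0.14 in Stab1-/- liver (adjusted p = 0.16; 95% interval -0.08 to 0.53). Relative to the hepatocyte markers both signs turned, to -0.08 in wildtype (adjusted p = 0.638) and -0.41 in Stab1-/- liver (adjusted p = 0.0574).

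**Figure D2:**
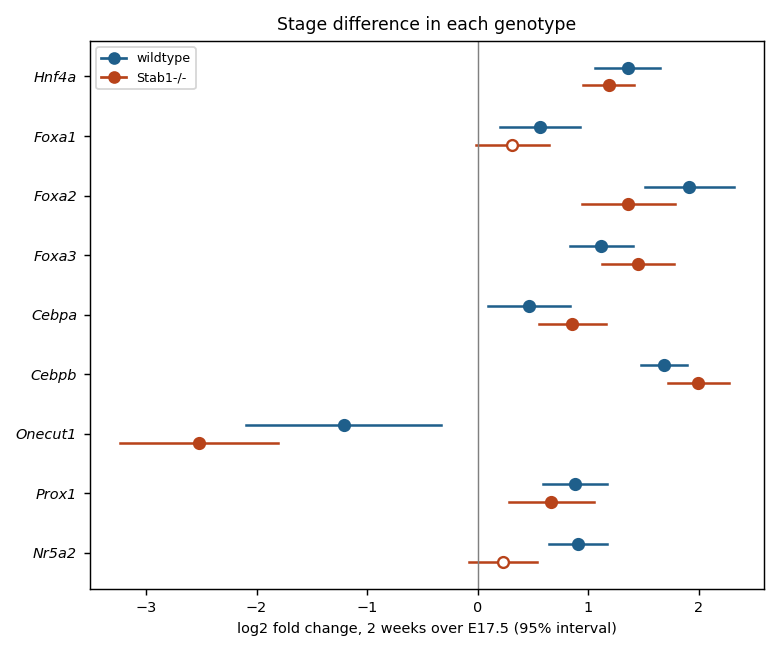
Log2 fold change of 2 weeks over E17.5 (x axis) for the 9 genes (y axis) in wildtype and Stab1-/- liver, from edgeR with TMM scaling; lines are 95% intervals and filled points are genes with an adjusted p under 0.05. Onecut1 is the only gene left of 0, at -1.21 and -2.52, and Foxa1 and Nr5a2 in Stab1-/- liver are open points.

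**Figure D3:**
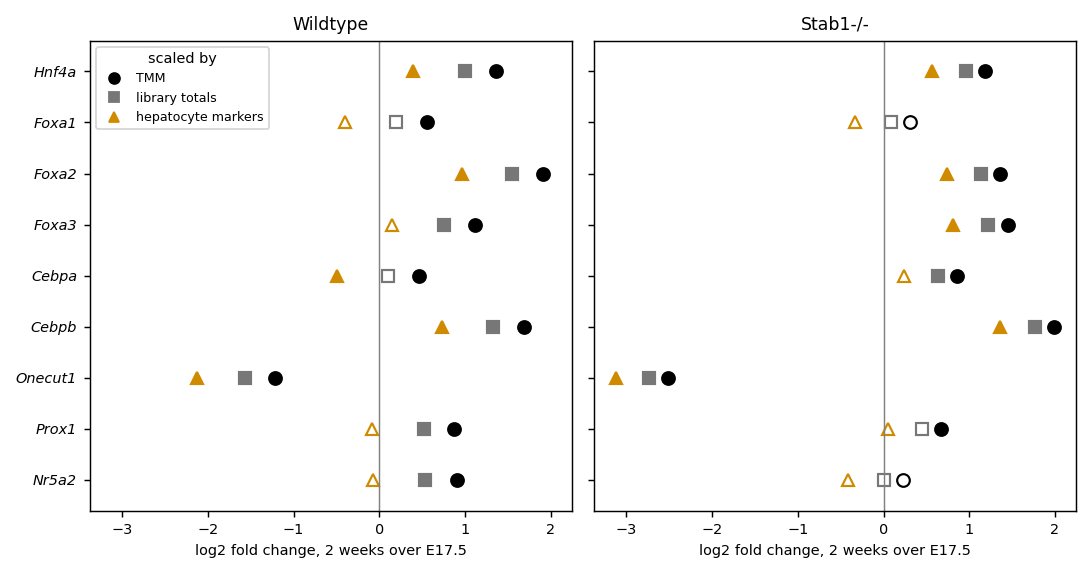
The same log2 fold changes (x axis) under 3 scalings of the libraries, by TMM, by library totals and to the 15 hepatocyte markers; filled symbols have an adjusted p under 0.05. Hnf4a, Foxa2 and Cebpb remain right of 0 and Onecut1 left of 0 throughout, whereas with hepatocyte markers Foxa1 and Nr5a2 turn negative in both genotypes and Cebpa (-0.50) and Prox1 (-0.09) turn negative in wildtype.

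Ratios within a library do not depend on the scaling of whole libraries, but GC-content offsets act on each gene and can change them. With these offsets the log2 fold change with age was 1.25 for Cebpb and 0.32 for Cebpa in wildtype, and 1.54 and 0.81 in Stab1-/- liver. The ratios below are without such offsets. The ratio of Cebpa to Cebpb, in RPKM per RPKM, was 6.25 ± 0.724 (SD, n = 4) in wildtype and 6.74 ± 0.971 (n = 3) in Stab1-/- fetuses, and 2.69 ± 0.604 and 3.05 ± 0.199 (n = 4 each) at 2 weeks. Every fetal library, from 5.40 upwards, was above every 2-week library, none of which passed 3.23. The C/EBP pair was thus closer to equal levels at 2 weeks in both genotypes.

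Within the forkhead family, Foxa3 contributed 67.2 ± 5.0% of the summed RPKM in wildtype fetuses, Foxa2 21.6 ± 5.91% and Foxa1 11.3 ± 1.5%. At 2 weeks the wildtype shares were 59.9 ± 4.81%, 33.3 ± 3.72% and 6.79 ± 1.26%. In Stab1-/- livers Foxa2 contributed 24.4 ± 5.56% at E17.5 and 25.3 ± 1.14% at 2 weeks, and Foxa3 61.2 ± 6.67% and 67.5 ± 1.69%. At 2 weeks the Foxa2 share lay between 30.7% and 38.8% in wildtype and between 23.8% and 26.6% in Stab1-/- libraries, with no overlap, which is given as a description because the Foxa2 share was picked out after its values were seen.

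**Figure D4:**
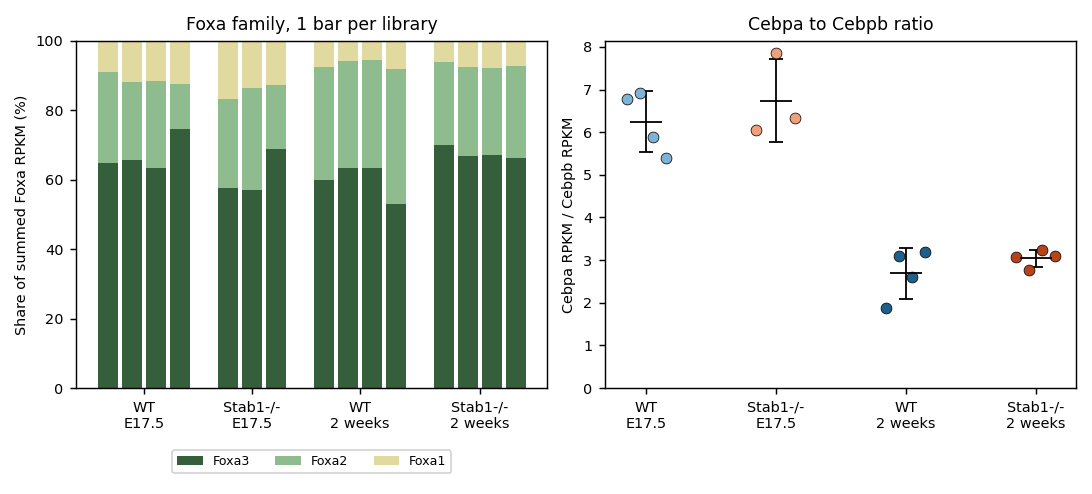
Left, the share of Foxa1, Foxa2 and Foxa3 in their summed RPKM (y axis, percent), with 1 bar per library grouped by genotype and age; right, the ratio of Cebpa to Cebpb RPKM per library with mean ± SD. Foxa3 holds more than the other 2 forkhead genes together in every library, and the C/EBP ratio lies between 5.40 and 7.84 at E17.5 and between 1.87 and 3.23 at 2 weeks.

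The second question was whether the loss of Clever-1 changed these factors. At 2 weeks none of the 9 genes was called by edgeR between Stab1-/- and wildtype liver, with 2.67% of 12716 tested genes called, and all 9 genes had overlapping ranges, where 14.9% of the tested genes had ranges apart. At an unadjusted p under 0.05 there were 2 (Foxa2 and Cebpa), DESeq2 called 1 (Foxa2) and limma on log2(RPKM + 0.1) called none. The median log2 fold change of the 9 was -0.01, beside -0.01 over all tested genes.

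Foxa2, with the values given above, had means of 15.7 ± 2.44 RPKM in Stab1-/- and 20.6 ± 2.89 RPKM in wildtype mice (SD, n = 4 each), and 1 Stab1-/- library (19.2 RPKM) lay within the wildtype range. The log2 fold change was -0.48 ± 0.14 (adjusted p = 0.087; 95% interval -0.80 to -0.17). It was called with DESeq2 (-0.47, adjusted p = 0.0483), with the replicate number as a block (-0.49, adjusted p = 0.0285), and without Stab1-/- replicate 4 (-0.63, adjusted p = 0.0438) or wildtype replicate 2 (-0.57, adjusted p = 0.0481). Across genes, the log2 fold changes of this comparison followed transcript GC content (Spearman's rho = -0.34; genes are not independent replicates), and with GC-content offsets Foxa2 was at -0.38 (adjusted p = 0.123).

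Cebpa had a mean of 155 ± 23.6 RPKM in Stab1-/- and 114 ± 23.8 RPKM in wildtype mice, a log2 fold change of 0.36 ± 0.17 (adjusted p = 0.213; 95% interval 0.00 to 0.72). Onecut1 was at -0.91 ± 0.45 (adjusted p = 0.243; 95% interval -1.89 to 0.06), and without the high wildtype replicate 2 at -0.23 (adjusted p = 0.668). For the other 6 genes the log2 fold changes lay between -0.18 (Nr5a2) and 0.18 (Cebpb). The 95% interval of Hnf4a was -0.33 to 0.26, so that a change above 0.33 on the log2 scale in either direction lay outside it. This bound holds for the TMM fit only, as Hnf4a was at 0.15 relative to the hepatocyte markers.

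At E17.5 only Nr5a2 was called, higher in Stab1-/- liver, with 0.366% of 13388 tested genes called. Its 3 Stab1-/- libraries (8.33, 7.84 and 8.95 RPKM) were all above the 4 wildtype libraries (5.87, 6.07, 5.74 and 6.86 RPKM), and the genotypes of the other 8 genes overlapped at this age. Ranges apart were found for 12.2% of all tested genes, so that 1 of 9 is near the background. The log2 fold change was 0.51 ± 0.09 (adjusted p = 0.0484; 95% interval 0.32 to 0.70), which lies just under the threshold. It was positive in 19 of 19 alternative fits and called in 3 of them: DESeq2 (adjusted p = 0.00561), median-of-ratios size factors (adjusted p = 0.0487) and the fit without wildtype replicate 4 (adjusted p = 0.0457). In the other 16 the adjusted p ranged up to 0.412, the value relative to the hepatocyte markers, where the log2 fold change was 0.35.

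Some fetal libraries also carried genes of neighbouring organs in which several of the 9 factors are known to act. The intestinal factor Cdx2 had 253 reads in Stab1-/- replicate 1, 19 in Stab1-/- replicate 3 and at most 1 in the other 5 fetal libraries, and the summed level of 9 intestinal markers was 369 RPKM in Stab1-/- replicate 1 against 129 to 184 RPKM in the other 6. The summed level of 7 pancreatic acinar markers was 2597 RPKM in wildtype replicate 2, and in the other wildtype fetuses it ranged from 0.861 to 243 RPKM, and in the Stab1-/- fetuses from 0.499 to 61.7 RPKM. Without both libraries, a comparison added after seeing the data, Nr5a2 was at 0.52 (adjusted p = 0.192) between the 2 and 3 libraries left. Sums of blood cell markers were compared between the genotypes as well. The summed granulocyte markers lay between 3069 and 3455 RPKM in the Stab1-/- fetuses and between 4471 and 7430 RPKM in wildtype, without overlap. In Stab1-/- fetuses this sum was mostly S100a8 (1272 ± 92.7 RPKM) and S100a9 (1615 ± 128). Mpo was at 89.2 ± 10.7 RPKM in Stab1-/- and 98.0 ± 14.5 in wildtype fetuses, Elane at 59.3 ± 7.09 and 72.6 ± 9.62, and Ltf at 133 ± 27.3 and 163 ± 14.8. The erythroid sums overlapped, with medians of 3565 and 4711 RPKM and the highest, 4982 RPKM, in Stab1-/- replicate 3. None of the 11 erythroid markers was called by edgeR. None of the 8 granulocyte markers was called by edgeR (5 at an unadjusted p under 0.05, 2 by DESeq2). The part of blood cells and of the neighbouring organs in the level of Nr5a2 was not tested.

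The other 8 genes were not called at E17.5, and none of them had an unadjusted p under 0.05. Their log2 fold changes lay between -0.24 (Foxa3, adjusted p = 0.445) and 0.40 (Onecut1, adjusted p = 0.611). Hnf4a had 65.9 ± 0.671 RPKM (SD, n = 3) in Stab1-/- and 62.1 ± 4.32 RPKM in wildtype fetuses, a log2 fold change of 0.15 ± 0.08 (adjusted p = 0.452; 95% interval -0.03 to 0.33).

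**Figure D5:**
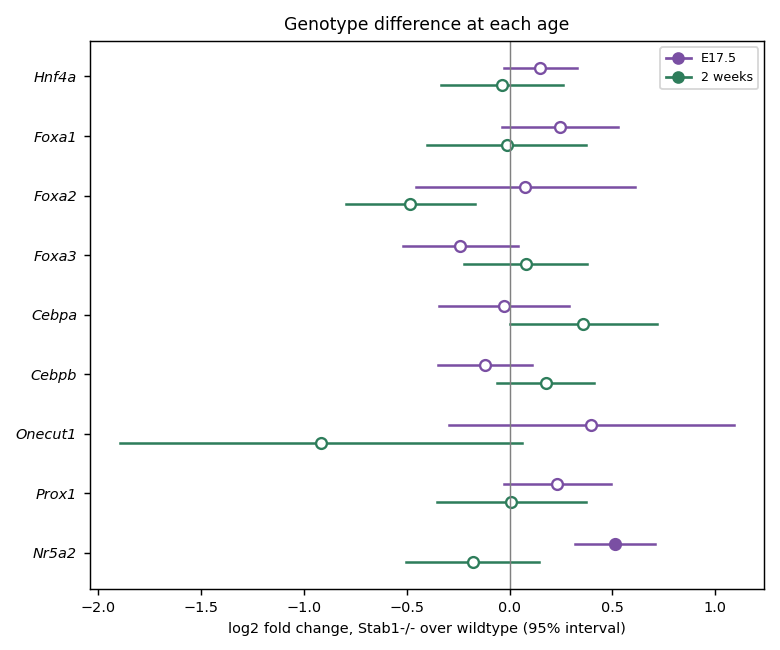
Log2 fold change of Stab1-/- over wildtype liver (x axis) for the 9 genes (y axis) at E17.5 and at 2 weeks, with 95% intervals; filled points have an adjusted p under 0.05. Nr5a2 at E17.5 (0.51) is the only filled point, and the intervals of Onecut1 are the widest at both ages.

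Whether the genotype difference changed with age was tested directly with all 15 libraries, which are the same libraries as in the comparisons above. None of the 9 genes was called by edgeR, with 1.81% of 13885 tested genes called. At an unadjusted p under 0.05 there were 2 (Nr5a2 and Cebpb), DESeq2 called Nr5a2, and limma called none. For Nr5a2 the log2 fold change between genotypes at E17.5 exceeded that at 2 weeks by 0.65 ± 0.19 (adjusted p = 0.07; 95% interval 0.26 to 1.04), so that the call of a rise with age in wildtype and its absence in Stab1-/- liver are not shown to differ at this threshold. It was called without Stab1-/- replicate 3 of 2 weeks (0.79, adjusted p = 0.0401) and without wildtype replicate 2 of 2 weeks (0.71, adjusted p = 0.0455). The corresponding value of Onecut1 was 1.29 ± 0.62 (adjusted p = 0.224). That of Cebpb lay between -0.62 and -0.22 over the alternative fits, with a lowest adjusted p of 0.0873.

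Other hepatocyte regulators followed the stage difference too. Of all tested genes, 34.9% were called higher and 37% lower in wildtype, and 35.7% and 36.8% in Stab1-/- liver, with medians of -0.01. Of 30 further transcription factors and cofactors of hepatocytes, 27 were called higher and 1 lower at 2 weeks in wildtype, and 23 higher and 1 lower in Stab1-/- liver, with median log2 fold changes of 1.25 and 1.2. The 4 with the smallest adjusted p in wildtype were the xenobiotic receptor Nr1i3 (4.46 ± 0.20), the fasting-response factor Creb3l3 (2.32 ± 0.10), Tbx3 (3.01 ± 0.15) and the hepatoblast homeobox gene Hhex (1.68 ± 0.09). In Stab1-/- liver they were Nr0b2 (6.45 ± 0.19), which encodes the bile acid responsive repressor SHP, the oxysterol receptor Nr1h3 (2.36 ± 0.10), the orphan receptor Nr2f6 (1.96 ± 0.09) and Nr1i3 (4.99 ± 0.25). Scaled to the hepatocyte markers, 11.2% of all tested genes were called higher and 71.9% lower in wildtype, and 15.8% and 56.1% in Stab1-/- liver. Of the 30 genes, 14 were then called higher and 3 lower in wildtype, and 17 higher and 1 lower in Stab1-/- liver. Between genotypes edgeR called none of them, at 2 weeks (7 at an unadjusted p under 0.05, 2 by DESeq2, 0 by limma) or at E17.5 (9, 2 and 0, with 29 genes tested). Of all tested genes 2.67% were called at 2 weeks and 0.366% at E17.5.

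Genes known as targets of the factors were read in the same way, against the same shares of all tested genes. With age, 34.9% of all tested genes were called higher in wildtype and 35.7% in Stab1-/- liver. With hepatocyte marker scaling these shares were 11.2% and 15.8%. Of 9 known targets of HNF4A, 8 were called higher at 2 weeks in wildtype and 7 in Stab1-/- liver, with medians of 1.83 and 1.81. Apoc3, an apolipoprotein of triglyceride-rich particles, went from 18.5 ± 6.22 to 1527 ± 194 RPKM in wildtype (6.72 ± 0.24 on the log2 scale). G6pc, which encodes the last enzyme of glucose production, went from 1.42 ± 0.598 to 186 ± 61.1 RPKM in wildtype (7.38 ± 0.35), and the coagulation factor gene F9 (2.32 ± 0.12) and the urea cycle gene Otc (2.62 ± 0.16) were called as well. Scaled to the hepatocyte markers, a list that shares genes with this one, 5 of the 9 were called higher and 1 lower in wildtype, and 6 higher and 2 lower in Stab1-/- liver. The 15 hepatocyte markers themselves had 11 genes called higher in wildtype, and 7 higher and 1 lower in Stab1-/- liver.

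Of 6 known targets of FOXA factors, 4 were called higher and 1 lower with age in wildtype, and 3 higher and 2 lower in Stab1-/- liver. The shares of all tested genes were 34.9% higher and 37% lower in wildtype, and 35.7% and 36.8% in Stab1-/- liver. The tyrosine-degrading enzyme gene Tat rose by 6.84 ± 0.34 in wildtype and the gluconeogenic Pck1 by 8.53 ± 0.55, while Afp, which encodes the fetal serum protein alpha-fetoprotein, went from 18457 ± 788 to 112 ± 50.9 RPKM (-7.01 ± 0.41). Of 6 known targets of C/EBP factors, which share Alb, Tat and Pck1 with the FOXA list and G6pc with the HNF4A list, 5 were called higher in wildtype, and 4 higher and 1 lower in Stab1-/- liver. Scaled to the hepatocyte markers, the wildtype calls were 3 higher and 2 lower for FOXA targets and 4 higher and 2 lower for C/EBP targets. Of all tested genes 11.2% were then called higher and 71.9% lower. All 6 known targets of NR5A2 were called higher in both genotypes, with medians of 4.42 and 3.84, among them the sterol transporter genes Abcg5 (7.80 ± 0.22 in wildtype) and Abcg8 (6.85 ± 0.24), and Nr0b2 (6.95 ± 0.38 in wildtype). With hepatocyte marker scaling 5 of these 6 were called, all higher, in either genotype. The shares of all tested genes called higher were 11.2% in wildtype and 15.8% in Stab1-/- liver.

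Between the genotypes at 2 weeks, Afp was lower in Stab1-/- liver, at 27.2 ± 5.30 against 112 ± 50.9 RPKM (SD, n = 4 each; -2.13 ± 0.33, adjusted p = 0.00746). Pck1, at 479 ± 55.4 against 840.1 ± 219 RPKM (-0.90 ± 0.19, adjusted p = 0.0328), and G6pc, at 112 ± 6.47 against 186 ± 61.1 RPKM (-0.82 ± 0.19, adjusted p = 0.0455), were lower as well. At this age 2.67% of all tested genes were called in either direction. Afp, Pck1 and G6pc made 2 of 6 FOXA targets, 2 of 6 C/EBP targets and 1 of 9 HNF4A targets called lower. None was called higher. By limma on log2(RPKM + 0.1) 1, 0 and 0 of these were called, and scaled to the hepatocyte markers 2, 1 and 0. The log2 fold change of Afp between genotypes at E17.5 exceeded that at 2 weeks by 2.32 ± 0.41 (adjusted p = 0.0187), and that of G6pc by 1.82 ± 0.45 (adjusted p = 0.0488). No NR5A2 target was called by edgeR at 2 weeks (1 at an unadjusted p under 0.05, 0 by DESeq2 and by limma), and at E17.5, where Nr5a2 was called, none of its 5 tested targets was called (2 at an unadjusted p under 0.05, 0 by DESeq2 and by limma; median log2 fold change 0.39). The stellate cell markers moved at 2 weeks too, with 3 of 7 called lower in Stab1-/- liver (Col3a1, Col1a1 and Reln), as did the endothelial markers with 1 of 9 called lower (Kdr), while none of either list was called once scaled to the hepatocyte markers. The summed granulocyte markers lay between 171 and 392 RPKM in Stab1-/- liver and between 26.5 and 130.1 RPKM in wildtype at 2 weeks, without overlap. In Stab1-/- liver this sum was mostly S100a8 (115 ± 51.0 RPKM) and S100a9 (133 ± 51.7), while Mpo, Elane and Prtn3 were at 0.637, 0.689 and 1.56 RPKM. None of the 6 tested was called by edgeR (2 at an unadjusted p under 0.05, 0 by DESeq2 and by limma). For the difference of the genotype effect between ages edgeR called 2 of 8, S100a8 (-2.55 ± 0.56, adjusted p = 0.0347) and S100a9 (-2.46 ± 0.57, adjusted p = 0.0437). Of all tested genes 1.81% were called there. The part of these cell types in the values of the other lists was not tested.

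The genes most alike in pattern were found by Pearson's r of log2(RPKM + 0.1) over the 15 libraries, which fall into 2 ages, so that r mainly follows the age difference and is given as a description. The closest to Hnf4a were Etfdh, Fmo5 and Acad11 (r of 0.972 to 0.974), and the closest to Cebpb were Cox5a, AW112010 and Stard10 (0.992 to 0.994). Foxa2 was closest to Fas, Odf3b and Ldhd (0.963 to 0.970), and Foxa3 to Ggnbp1, Fbxo8 and Tmem56 (0.962 to 0.963). Onecut1 was closest to B4galt1, Ikzf4 and Aprt (0.923 to 0.930). Each of these was lower in wildtype at 2 weeks than at E17.5, which follows from the choice by r.

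For the other 4 genes the values were lower. Cebpa was closest to Exosc5, Cyp7a1 and Mtss1 (r of 0.853 to 0.909), of which Cyp7a1 encodes the rate-limiting enzyme of bile acid synthesis. Nr5a2 was closest to Iqgap2, Nhsl1 and Erbb3 (0.838 to 0.916), Prox1 to Sh3bgrl2, Acot4 and Ptpn21 (0.864 to 0.872), and Foxa1 to Dedd, Ppl and Hdac5 (0.739 to 0.774), the lowest values of the 9.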

How the data were processed

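Total RNA of dissected livers was isolated with a NucleoSpin kit and checked on a Bioanalyzer, and Illumina libraries were made at BGI. The authors deposited 1 table with, per gene and library, the counts of uniquely mapped reads, RPKM values computed from them with the listed gene lengths and library totals, and the share of each gene model that reads covered, in percent. Aligner, counting program, strand setting and genome build are not given in the sources used here, so RefSeq windows (GRCm38.p6) serve for sequence and not for the reads.

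The deposited counts were analysed in R 4.3.3 by the two-sided quasi-likelihood test of edgeR 4.0.16 (TMM; filterByExpr with min.count 10 and min.total.count 15; Benjamini-Hochberg adjustment over all tested genes), with the libraries of the compared groups in each fit and all 15 libraries for the difference between ages. Intervals are 95% intervals of the fit. Alternatives were DESeq2 1.42.0, median-of-ratios, library-total and hepatocyte-marker scaling, no filter, all 15 libraries in each fit, a replicate block, GC-content offsets, limma 3.58.1 on log2(RPKM + 0.1) and log2(RPKM + 1), and leaving out each library. The fits were tested on simulated counts. The methods count mice, but the labels do not state that each library is a separate animal, so p-values measure the spread between these libraries.

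The 9 members and all lists (125 further genes) were chosen with earlier results of these data known. From each list the text names at most the 4 called genes with the smallest adjusted p per comparison, and for each member the 3 genes with the highest Pearson's r. The calls cover all 9 members in every comparison, and values are given for each member in the comparisons of age.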

Additional observations from a re-analysis of the deposited data

Results flagged for a closer look

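In 60 groups of 4 libraries tested for a value that stands apart by Dixon's test at its 95% critical value, 3 were picked out, the number that a rate of 1 in 20 gives. Onecut1 was at 7.85 RPKM in wildtype replicate 2 of 2 weeks, where the next highest wildtype library had 2.83 RPKM. Prox1 was at 12.4 RPKM in wildtype replicate 4 of E17.5, with the next at 9.28 RPKM. The summed level of the pancreatic acinar markers was 2597 RPKM in wildtype replicate 2 of E17.5, with the next at 243 RPKM.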

How the results depend on the processing

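Of the 9 genes, Foxa2 was the 1 called between genotypes at 2 weeks with DESeq2 and with the replicate block, and leaving out libraries gave 0 to 1 called. At E17.5 the count fell from 1 to 0 with library totals, hepatocyte markers, no filter, all 15 libraries, the replicate block, GC-content offsets (alone or with the block), either limma fit, and both libraries with other-organ markers left out, and leaving out libraries gave 0 to 1. With age in wildtype, 5 genes were called relative to the hepatocyte markers and 7 by limma on log2(RPKM + 0.1), instead of 9. Library totals lost Foxa1 and Cebpa, and GC-content offsets lost Cebpa (0.32, adjusted p = 0.113). In Stab1-/- liver 5 were called relative to the hepatocyte markers and 6 by that limma fit, instead of 7. There library totals lost Prox1, and GC-content offsets called Foxa1 in addition (0.42, adjusted p = 0.012). For the difference between ages, DESeq2 and the replicate block called 1 (Nr5a2), and leaving out libraries gave 0 to 1. Deviations of same-numbered libraries correlated at -0.17 to 0.19, and those of other pairs at -0.24 to 0.25. Between genotypes the means were 0.10 against -0.03 at 2 weeks and -0.10 against 0.03 at E17.5. With 3 or 4 same-numbered pairs a comparison, these values cannot settle whether the numbers pair the libraries. The block changed no other count of the 9 by over 1.5 times.

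Log2 fold changes between genotypes at 2 weeks turned sign for Hnf4a (0.0552 by totals, 0.153 by hepatocyte markers, 0.0531 with GC-content offsets, 0.0657 with these and the block, 0.0691 and 0.0685 with limma), Foxa1 (0.0699, 0.151, 0.0774, 0.0958, 0.0918 and 0.0731 in the same order, 0.00307 with all libraries), Prox1 (-0.011 with the block) and Nr5a2 (0.0166 by hepatocyte markers). Leaving out libraries gave ranges of -0.137 to 0.0816 for Hnf4a, -0.126 to 0.141 for Foxa1, -0.0222 to 0.159 for Foxa3, -0.111 to 0.153 for Prox1. At E17.5 Hnf4a (-0.0131) and Foxa2 (-0.080) turned with hepatocyte markers, Foxa2 with the block (-0.11) and with GC-content offsets and the block (-0.13), and Cebpa (0.0324) without both libraries with other-organ markers; leaving out libraries gave -0.14 to 0.23 for Foxa2 and -0.14 to 0.0415 for Cebpa. With age, hepatocyte markers turned Foxa1 (-0.40), Cebpa (-0.50), Prox1 (-0.0888) and Nr5a2 (-0.0764) in wildtype and Foxa1 (-0.33) and Nr5a2 (-0.41) in Stab1-/- liver, where limma gave -0.00987 and -0.0075 for Nr5a2. In the difference between ages they turned Hnf4a (-0.17), Foxa1 (-0.0738) and Prox1 (-0.138). The causes were not tested. All-gene calls ranged from 116 to 1181 at 2 weeks (340 as reported), 23 to 235 at E17.5 (49) and 14 to 1058 for the difference between ages (251), so that the adjusted p of a gene near the threshold depended on the fit. Precision is limited by the 3 or 4 libraries a group.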
